A study of Mus musculus with 2 samples.

Results

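The cyclins, cyclin-dependent kinases (CDKs), CDK inhibitors and E2F factors that drive the cell cycle, 45 genes taken by name from the 49492 genes of the count table, were compared between mammary basal cells grown alone and basal cells grown with M2-like macrophages. All 45 genes had at least 10 reads summed over both libraries, the minimum for the comparison, which 19233 genes met. Both groups were primary wild-type (WT) mammary cells that had been sorted as basal cells from adult female mice and kept in a 3D matrix gel for 11 to 14 days. The ctrl group had no treatment, and the M2 group shared its wells with macrophages that had been grown from bone marrow and polarised with IL-4 and IL-13. Per the study's methods, a porous insert kept the macrophages apart from the matrix and they were replaced at intervals, and both groups had the same medium with EGF and insulin, transferrin and selenium. Each group holds 1 library, so no difference below has a replicate check, and each interval is a 95% interval that covers counting error only.

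Cells leave G1 when D-type cyclins with CDK4 or CDK6 phosphorylate RB and its relatives, which then release the E2F factors. E2F switches on the genes of DNA replication together with the E-type cyclins, whose partner is CDK2, and later waves of A- and B-type cyclins with CDK1 carry the cell through G2 and mitosis. CDK inhibitors hold the kinases back, and the ubiquitin ligases SCF and APC/C remove cyclins and inhibitors at fixed points of the cycle. In the mammary gland this machinery drives the growth of ducts at puberty and of alveoli in pregnancy, and cyclin D1 is the D-type cyclin best known there.

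The ctrl library held 26912610 reads in genes and the M2 library 29413844, with 4.83% and 4.11% of them in mitochondrial genes. The 45 genes took 43593 reads (0.162%) in ctrl and 53919 (0.183%) in M2, from 39 reads for Cdkn3 in ctrl to 11967 for Ccnd1 in ctrl. All 9 basal markers were present, and their summed reads were 249089 in ctrl and 293174 in M2, led by Krt14 (81991 and 68968) and Krt5 (56383 and 83619). Luminal markers were present as well, with 92847 and 73363 reads over 11 genes. Of these genes, 6 were at least 2-fold lower in M2 and 1 was higher. Fibroblast collagens and related genes held 21529 and 8212 reads over 9 genes. Of the 8 with enough reads, 5 were at least 2-fold lower in M2 and 1 was higher. At that threshold 7.82% of all genes tested were lower and 9.53% higher. Macrophage markers held 1085 and 9464 reads over 19 genes. Of the 6 with enough reads, 4 were at least 2-fold higher in M2 (Cd14, Aif1, Cd163 and Itgam), beside the same 9.53%. Cd14 alone held 803 and 9114 of these reads, and without it (a split made after the values were seen) the sums were 282 and 350. Most of these were reads of Cd68 (170 and 165, log2 -0.11) and Csf1r (94 and 92, log2 -0.10), which differed little. Aif1 had 3 and 40 reads, Cd163 2 and 30 and Itgam 3 and 9. Adgre1, Ptprc, Tyrobp, Fcer1g, Laptm5, C1qb and C1qc, which define macrophages and other blood cells, had 0 reads in both libraries (named after their values were seen), and 15 of the 19 macrophage markers in ctrl and 12 in M2 had 3 reads or fewer. The part of the luminal, macrophage and fibroblast markers in the differences below was not tested. Since RNA was taken from whole cultures, a larger share of dividing cells and more RNA of a cell cycle gene in each dividing cell cannot be told apart.

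Of the 45 genes, 11 were at least 2-fold higher in M2 and 1 was at least 2-fold lower, where 9.53% and 7.82% of all 19233 genes passed the same threshold in those directions. These 11 genes are 24.4% of the set. They were Ccnd2 and Cdkn2a of G1, Ccne1 and Fbxo5 of the G1/S transition, and Ccnb1, Ccnb2, Cdk1, Cks2, Cdc25c, Cdkn3 and Cdc20 of G2 and mitosis, and the 1 lower gene was E2f2. The median log2 fold difference (M2 over ctrl, from reads plus 1 scaled by library size) was 0.50 over the 45 genes and -0.0032 over all genes tested, whose quartiles were -0.32 and 0.35. By the phase in which a gene acts, the median was 0.16 over 17 genes of G1, 0.33 over 15 genes of G1/S and 1.11 over 13 genes of G2/M. Each gene was given a single phase, and Ccna2 and Fbxo5 count in G1/S though they also act in G2. In G2/M, 7 of 13 genes were at least 2-fold higher in M2, against 2 of 15 in G1/S and 2 of 17 in G1. The counting interval lay wholly above 0 for 29 of the 45 genes and wholly below 0 for 7, where it did so for 28.8% and 27.9% of all genes tested.

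**Figure D1:**
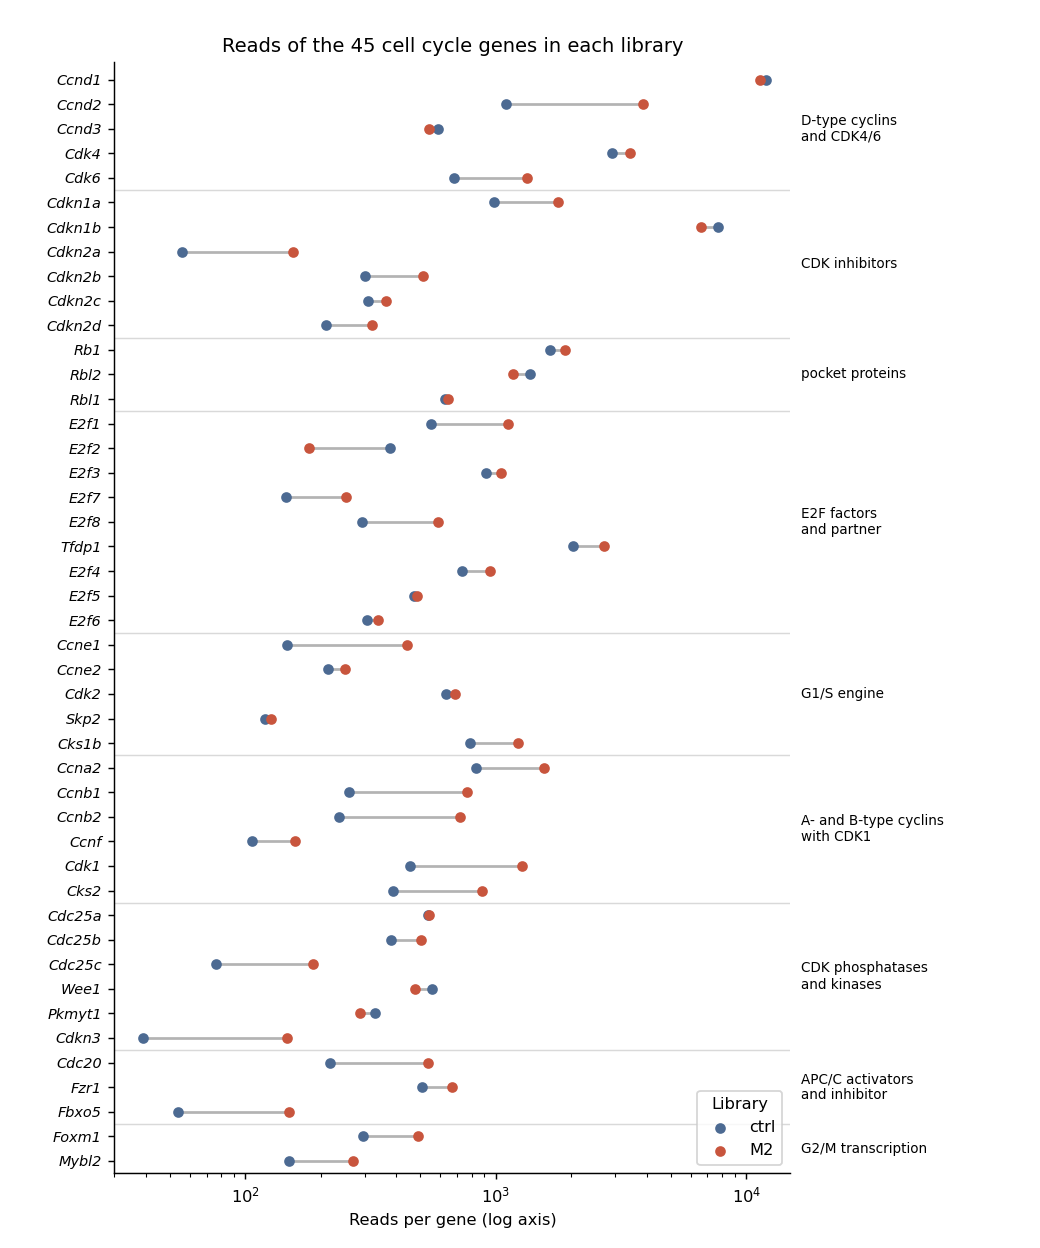
Reads of each of the 45 genes (log axis) in the ctrl (blue) and M2 (red) libraries, 1 point per library, grouped by role. The widest gaps with M2 to the right were those of Cdkn3 (39 and 147 reads) and Ccnd2 (1103 and 3879), and the widest with M2 to the left was that of E2f2 (379 and 180).

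**Figure D2:**
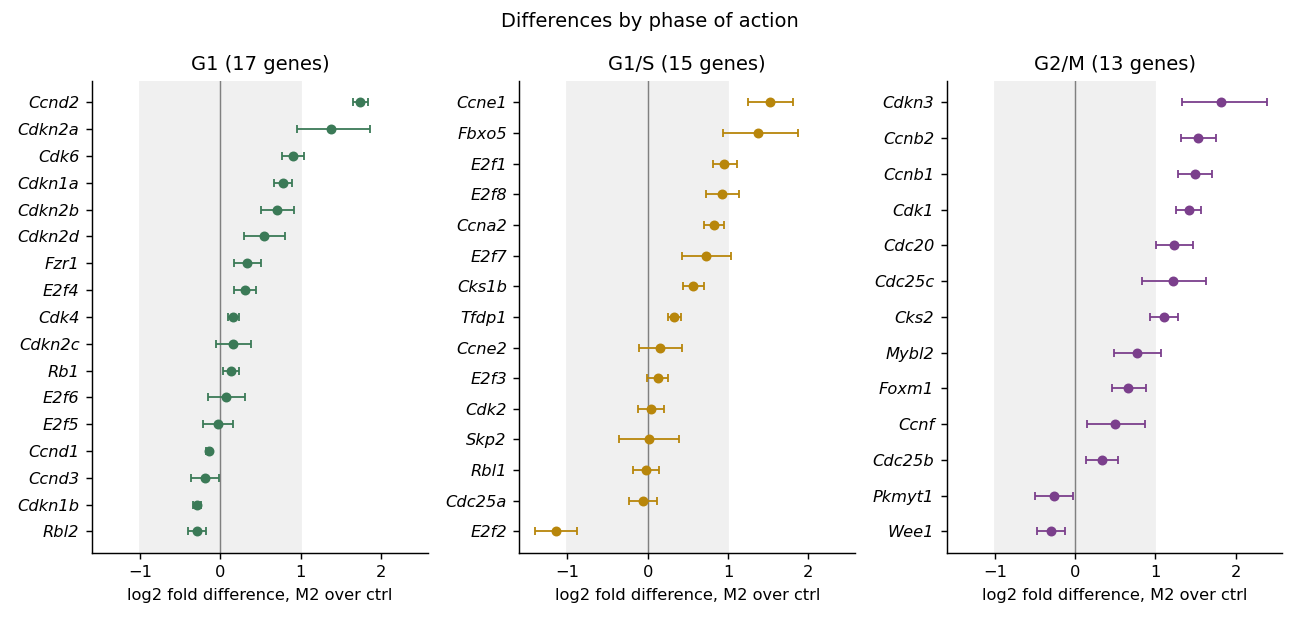
Log2 fold difference (M2 over ctrl) of the genes of G1, G1/S and G2/M, with bars for the 95% counting interval, and a grey band for differences under 2-fold. In G2/M 7 of 13 points lie right of the band, and the only point left of it is E2f2 in G1/S.

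The promoters of some of these genes are printed first because groups of cell cycle genes that act in the same phase are known to share short promoter motifs. The CHR element (TTTGAA or TTCGAA) is bound by the MuvB complex, the CCAAT box by the factor NF-Y, and E2F sites, searched here as TTTCCCGC or TTTCGCGC or TTTGCCGC or TTTGGCGC, by E2F. Each line gives 150 bases before the RefSeq start of a gene on GRCm38.p6, in the direction of its transcription, with capitals for these motifs on either strand. Cdk1 lies at chr10:69352913-69353062 (minus strand), Ccnb1 at chr13:100786487-100786636 (minus), Ccnb2 at chr9:70421555-70421704 (minus), Cdc20 at chr4:118437344-118437493 (minus), Cdkn3 at chr14:46760391-46760540 (plus) and Fbxo5 at chr10:5805466-5805615 (minus), all of genes at least 2-fold higher in M2.
Cdk1: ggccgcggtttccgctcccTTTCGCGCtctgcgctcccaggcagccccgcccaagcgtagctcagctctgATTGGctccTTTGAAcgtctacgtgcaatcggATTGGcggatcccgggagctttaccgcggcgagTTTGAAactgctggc
Ccnb1: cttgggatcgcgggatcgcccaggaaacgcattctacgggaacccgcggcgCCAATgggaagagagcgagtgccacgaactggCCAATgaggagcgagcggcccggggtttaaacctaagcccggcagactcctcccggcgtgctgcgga
Ccnb2: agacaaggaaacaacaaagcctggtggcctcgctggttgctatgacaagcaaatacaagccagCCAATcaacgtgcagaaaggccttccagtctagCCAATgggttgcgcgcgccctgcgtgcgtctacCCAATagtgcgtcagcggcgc
Cdc20: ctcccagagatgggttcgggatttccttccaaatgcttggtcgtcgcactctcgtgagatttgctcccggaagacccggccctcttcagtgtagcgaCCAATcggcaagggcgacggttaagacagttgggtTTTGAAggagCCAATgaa
Cdkn3: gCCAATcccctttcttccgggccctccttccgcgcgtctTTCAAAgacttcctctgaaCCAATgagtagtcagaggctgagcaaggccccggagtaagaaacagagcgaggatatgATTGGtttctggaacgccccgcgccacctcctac
Fbxo5: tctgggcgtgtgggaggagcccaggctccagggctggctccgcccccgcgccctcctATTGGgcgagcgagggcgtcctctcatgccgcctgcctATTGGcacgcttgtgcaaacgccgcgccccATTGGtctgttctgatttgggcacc

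The Cdk1 stretch holds all 3 kinds of motif, with CHR letters at positions -71 to -66 and -15 to -10 from the start and an E2F match at -131 to -124. The Cdc20 stretch has CHR letters at -18 to -13, and that of Cdkn3 has them at -111 to -106. Of the searched letters, Ccnb1 has CCAAT boxes alone, at -99 to -95 and -67 to -63. Forms of the CHR other than TTTGAA and TTCGAA were not searched. Ccnb2 and Fbxo5 each show CCAAT boxes here, and their CHR letters lie outside the printed bases. These CHR letters are at -167 to -162 and 5 to 10 in Ccnb2 and at 4 to 9 in Fbxo5. All positions depend on the RefSeq start. By the deposited gene coordinates, Cdk1, Ccnb1, Cdc20 and Fbxo5 start further upstream, so part of each of these stretches lies within the gene. The deposited start is base 100786570 for Ccnb1 and base 5805600 for Fbxo5.

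Also shown are 3 genes of the G1/S transition, of which Cdc25a and Tfdp1 differed by less than 2-fold and Ccne1 was higher in M2. No rule was set for which genes to print, and other genes of G1/S hold CHR letters, as given below. Cdc25a lies at chr9:109875429-109875578 (plus), Tfdp1 at chr8:13338601-13338750 (plus) and Ccne1 at chr7:38107491-38107640 (minus), and the stretches are printed in the same way.
Cdc25a: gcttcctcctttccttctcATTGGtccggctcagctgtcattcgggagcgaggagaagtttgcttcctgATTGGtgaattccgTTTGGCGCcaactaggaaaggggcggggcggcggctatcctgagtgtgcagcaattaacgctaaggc
Tfdp1: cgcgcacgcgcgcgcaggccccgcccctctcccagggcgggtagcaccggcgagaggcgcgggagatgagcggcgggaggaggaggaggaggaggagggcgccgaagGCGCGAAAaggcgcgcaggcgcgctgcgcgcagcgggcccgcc
Ccne1: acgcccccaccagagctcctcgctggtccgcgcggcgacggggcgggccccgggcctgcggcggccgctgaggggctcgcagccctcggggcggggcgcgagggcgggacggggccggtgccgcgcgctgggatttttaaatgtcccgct

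Cdc25a holds an E2F match at -67 to -60 beside CCAAT boxes, and Tfdp1 holds an E2F match at -43 to -36. Ccne1, although higher in M2, has none of the searched letters in these 150 bases, 79.3% of which are G or C. The deposited start of Ccne1, base 38107534, also lies within its stretch.

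RefSeq promoter windows of 300 bases (250 before and 50 after the start) were at hand for 34 of the 45 genes. Ccna2, Ccnd1, Ccnd2, Ccne2, Cdc25c, E2f4, E2f5, Foxm1, Pkmyt1, Rb1 and Wee1 had no window. CHR letters were found in 14 of the 34 genes (41.2%) and in 21.7% of 27025 genes in all, and CCAAT boxes in 23 (67.6%) and 41.1%. E2F matches were found in 9 of 34 (26.5%) and in 2.61% of all genes. By phase, CHR letters were present in 6 of 9 genes of G2/M, 6 of 13 of G1/S and 2 of 12 of G1, and E2F matches in 1, 7 and 1 genes. Both a CHR element and a CCAAT box were found in 6 of the 9 genes of G2/M (Ccnb2, Ccnf, Cdk1, Cdc25b, Cdkn3 and Cdc20), in 6 of the 13 of G1/S and in none of the 12 of G1, beside 8.61% of all genes. Those of G1/S were Fbxo5 and, among genes not at least 2-fold higher in M2, E2f2, E2f3, E2f8, Skp2 and Cks1b. Cks2, which was higher in M2, had CCAAT boxes and no CHR letters. Of the 9 genes at least 2-fold higher in M2 that had a window, 5 held both, and of the 25 other genes, 7 did. A match is a description of letters and not a binding site.

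**Figure D3:**
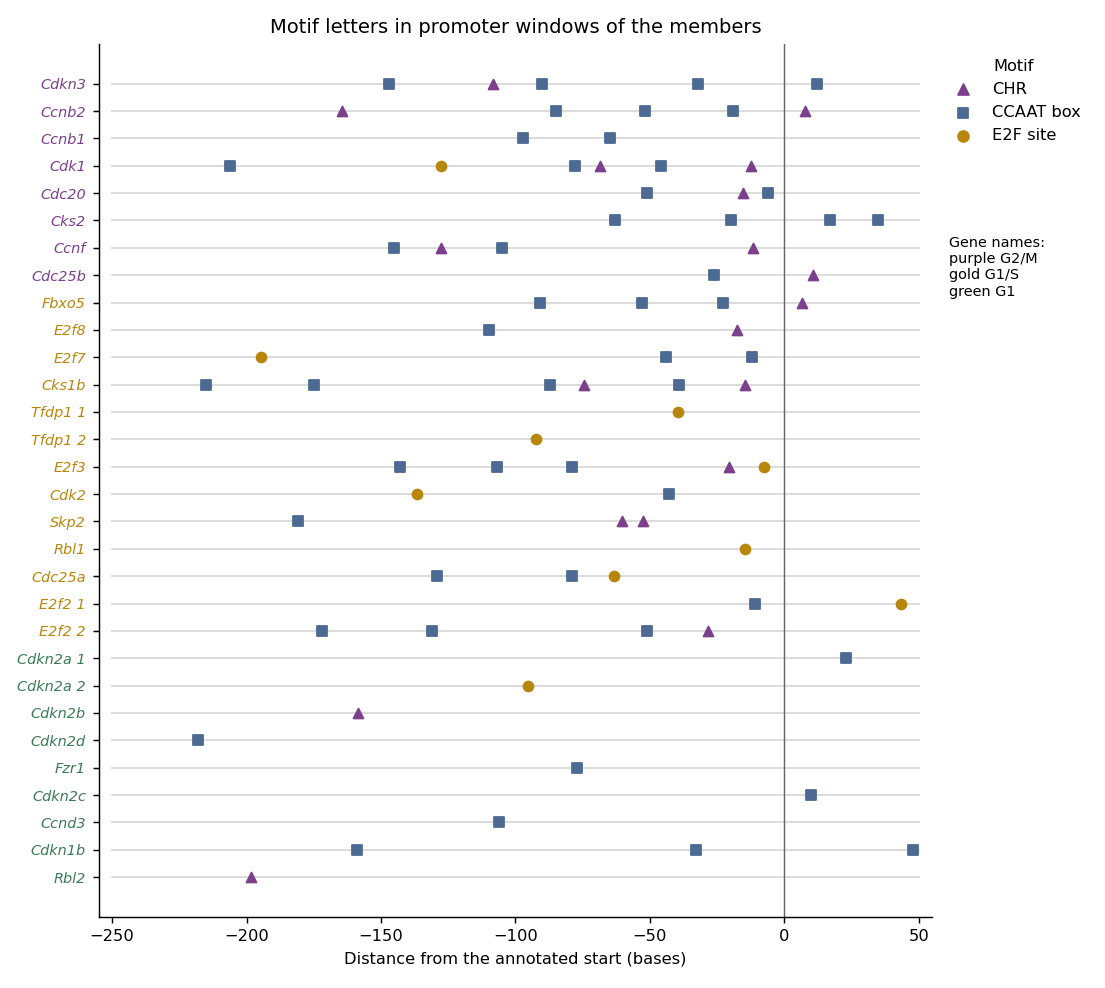
Positions of CHR (triangles), CCAAT box (squares) and E2F (circles) letters in the promoter windows that hold any, in bases from the annotated start, with gene names coloured by phase. CHR letters fall in 6 genes of G2/M, 6 of G1/S and 2 of G1, and E2F matches mostly in genes of G1/S.

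To examine entry into the cycle, the D-type cyclins and their kinases were compared first. Ccnd2 (chr6:127125162-127152193, minus strand) had 1103 reads in ctrl and 3879 in M2, which was 3.35-fold higher in M2 (log2 1.74, interval 1.65 to 1.84). Ccnd1 (chr7:144929931-144939925, minus) had 11967 and 11337 reads (log2 -0.15, interval -0.18 to -0.11), and Ccnd3 had 590 and 543 (-0.19, interval -0.36 to -0.02). The D-type cyclins thus differed from each other, and Ccnd1 stayed by far the most abundant. On a scale of reads divided by gene length and library size (RPKM), the level of Ccnd1 was 92.5 in ctrl and 83.5 in M2, that of Ccnd2 was 4.27 and 14.3 and that of Ccnd3 was 2.45 and 2.15. The level of the 3 genes summed was 99.23 RPKM in ctrl and 99.99 in M2, while the share of Ccnd2 in it was 4.30% and 14.3%. The ratio of Ccnd2 to Ccnd1, which does not depend on the scaling of the libraries, was higher in M2 by 1.89 on the log2 scale (interval 1.79 to 1.997).

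The kinases of these cyclins differed by less than 2-fold. Cdk4 had 2910 reads in ctrl and 3420 in M2 (log2 0.16, interval 0.09 to 0.24), and Cdk6 had 678 and 1329 (0.90, interval 0.77 to 1.04). Cdk6 lay close to the threshold, yet its level per length, 1.76 RPKM in ctrl and 3.30 in M2, stayed far under that of Cdk4, at 32.6 and 36.5 RPKM.

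The inhibitors of the INK4 family, which block CDK4 and CDK6, all had positive differences. Cdkn2a (chr4:89274471-89294653, minus) had 56 reads in ctrl and 155 in M2 (2.61-fold higher, log2 1.38, interval 0.95 to 1.87). It encodes both p16Ink4a and p19Arf, which gene counts cannot separate. The gene next to it, Cdkn2b, which encodes p15, had 299 and 514 reads (log2 0.71, interval 0.50 to 0.92), Cdkn2d had 209 and 320 (0.54, interval 0.29 to 0.80) and Cdkn2c had 310 and 364 (0.16, interval -0.06 to 0.39). Their summed level was 18.6 RPKM in ctrl and 29.2 in M2. Cdkn1a, the p21 gene and a classical target of p53, had 980 and 1769 reads (log2 0.78, interval 0.67 to 0.90). Cdkn1b, the p27 gene, whose protein is marked for decay by SCF with Skp2, had 7706 and 6607 (-0.29, interval -0.34 to -0.24). Neither of these 2 inhibitors passed 2-fold, and their values had opposite signs. Their summed level was 77.68 RPKM in ctrl and 77.98 in M2, and the share of Cdkn1a in it was 20.7% and 35.4%. The ratio of Cdkn1a to Cdkn1b was higher in M2 by 1.07 on the log2 scale (interval 0.95 to 1.20).

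**Figure D4:**
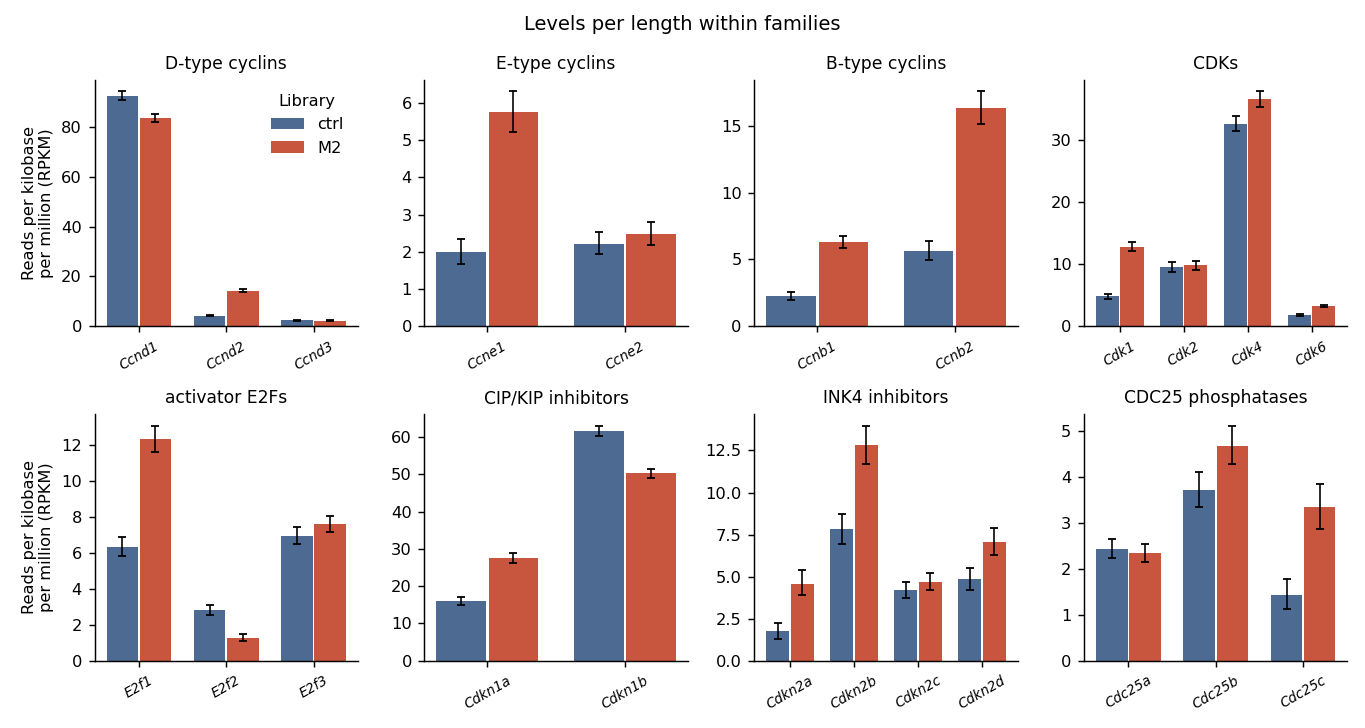
Level per length (RPKM, linear axes from 0) of the genes of 8 families in the ctrl (blue) and M2 (red) libraries, with bars for 95% Poisson intervals. Ccnd2, Ccne1, Cdk1, E2f1, Cdkn1a and Cdc25c took a larger share of their family in M2, and Ccnb1 and Ccnb2 were higher together.

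The pocket proteins, which bind E2F factors, differed little. Rb1, the retinoblastoma gene, had 1648 reads in ctrl and 1893 in M2 (log2 0.13, interval 0.03 to 0.23). Rbl1 (p107) had 624 and 644 (-0.02, interval -0.18 to 0.14), and Rbl2 (p130), the member typical of resting cells, had 1364 and 1167 (-0.29, interval -0.41 to -0.18). None of the 3 passed 2-fold.

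The E2F factors differed in both size and sign. Of the activators, E2f1 had 550 reads in ctrl and 1120 in M2 (log2 0.96, interval 0.81 to 1.11), just short of 2-fold. E2f2 (chr4:136172394-136196057, plus) had 379 and 180, and was 2.203-fold lower in M2 (log2 -1.14, interval -1.41 to -0.88), and E2f3 had 916 and 1049 (0.13, interval -0.0029 to 0.26). E2f2 was the only one of the 45 genes that was at least 2-fold lower. The summed level of the activators was 16.1 RPKM in ctrl and 21.2 in M2, of which E2f1 made up 39.4% and 58.1% and E2f2 17.5% and 6.04%. The ratio of E2f1 to E2f2 thus differed by 2.10 on the log2 scale (interval 1.80 to 2.40), the largest change among the 17 gene pairs compared, which were chosen after the values were seen.

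E2f7 and E2f8, atypical E2F factors that repress E2F targets and are E2F targets themselves, had 145 and 252 reads (log2 0.72, interval 0.43 to 1.03) and 292 and 585 reads (0.93, interval 0.73 to 1.14). Tfdp1, the partner DP1 with which E2F factors bind DNA, had 2037 reads in ctrl and 2691 in M2 (log2 0.33, interval 0.25 to 0.42). The repressor-type factors E2f4, E2f5 and E2f6 had log2 differences of 0.30, -0.03 and 0.07, with E2f4 at 732 and 949 reads.

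At the G1/S transition, the E-type cyclins parted from each other. Ccne1 (chr7:38097984-38107534, minus) had 146 reads in ctrl and 441 in M2, 2.87-fold higher (log2 1.52, interval 1.25 to 1.81), and Ccne2 had 213 and 249 (0.16, interval -0.11 to 0.43). Ccne2 was the more abundant per length in ctrl (2.22 RPKM against 1.997 for Ccne1, with overlapping intervals) and Ccne1 the more abundant in M2 (5.75 against 2.47). The ratio of Ccne1 to Ccne2 was higher in M2 by 1.37 on the log2 scale (interval 0.98 to 1.76). Their kinase Cdk2 had 634 and 685 reads (log2 0.04, interval -0.12 to 0.20), and Cdc25a, the phosphatase that activates it, had 537 and 541 (-0.06, interval -0.23 to 0.12). Skp2, the substrate receptor of SCF for p27, had 120 and 127 reads (0.01, interval -0.36 to 0.38), and its cofactor Cks1b had 788 and 1223 (0.56, interval 0.43 to 0.70). Ccna2, cyclin A2, which acts in S phase and G2, had 834 and 1554 reads (0.83, interval 0.71 to 0.95).

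Of the A- and B-type cyclins with CDK1, 4 of 6 genes were at least 2-fold higher in M2, where 9.53% of all genes tested were. Cdk1 (chr10:69336635-69352938, minus), the mitotic kinase, had 454 reads in ctrl and 1271 in M2, 2.66-fold higher (log2 1.41, interval 1.26 to 1.57). Its cyclins Ccnb1 (chr13:100778650-100786570, minus) and Ccnb2 (chr9:70407692-70421547, minus) had 260 and 767 reads (2.80-fold, log2 1.49, interval 1.29 to 1.70) and 237 and 721 reads (2.89-fold, log2 1.53, interval 1.32 to 1.75). The 3 genes differed by nearly the same factor, and the ratio of Ccnb1 to Cdk1 differed by 0.08 on the log2 scale (interval -0.18 to 0.34) and that of Ccnb1 to Ccnb2 by -0.04 (interval -0.35 to 0.26). The ratio of Ccnb1 to Ccna2, in contrast, was higher in M2 by 0.66 (interval 0.42 to 0.91), and that of Cdk1 to Cdk2 by 1.37 (interval 1.15 to 1.60). Within the summed level of the 4 CDKs, the share of Cdk1 was 9.86% in ctrl and 20.5% in M2. Cks2 (chr13:51645232-51650660, plus), a small CDK-binding subunit, had 388 and 879 reads (2.16-fold, log2 1.11, interval 0.94 to 1.29). Ccnf, an F-box cyclin that serves an SCF ligase in G2, had 106 and 158 (0.50, interval 0.14 to 0.88).

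Of the enzymes that place or remove the inhibitory phosphates of CDK1, only Cdc25c passed 2-fold. Cdc25c, which removes the inhibitory phosphates from CDK1, had 76 reads in ctrl and 187 in M2 (2.33-fold higher, log2 1.22, interval 0.84 to 1.63), and Cdc25b had 381 and 504 (0.33, interval 0.14 to 0.53). The kinases that place those phosphates had negative differences, Wee1 with 557 and 475 reads (-0.30, interval -0.48 to -0.12) and Pkmyt1 with 328 and 287 (-0.26, interval -0.50 to -0.03). Neither of these kinases passed 2-fold. The ratio of Cdc25c to Wee1 was higher in M2 by 1.53 on the log2 scale (interval 1.09 to 1.97). Cdkn3 (chr14:46760541-46771525, plus), a phosphatase that acts on CDKs, had 39 and 147 reads (3.53-fold, log2 1.82, interval 1.33 to 2.39), the largest difference of the 45 genes, on the lowest count in ctrl.

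Of the genes that steer APC/C, the ligase that ends mitosis, Cdc20 (chr4:118432901-118437352, minus), its activator in mitosis, had 217 reads in ctrl and 535 in M2 (2.34-fold higher, log2 1.23, interval 1.002 to 1.47). Fzr1 (Cdh1), its activator in G1, had 507 and 670 (0.33, interval 0.16 to 0.50), and the ratio of Cdc20 to Fzr1 was higher in M2 by 0.90 on the log2 scale (interval 0.61 to 1.19). Fbxo5 (chr10:5799160-5805600, minus), the inhibitor Emi1 that keeps APC/C off in S phase and G2, had 54 and 149 reads (2.60-fold, log2 1.38, interval 0.94 to 1.87). Neither of the transcription factors of the mitotic wave passed 2-fold. Foxm1 had 295 and 491 reads (0.66, interval 0.45 to 0.88) and Mybl2 (B-Myb) had 150 and 270 (0.77, interval 0.49 to 1.08).

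The 2-fold threshold fell within a dense stretch of values. Just inside it lay Cks2 (1.11), E2f2 (-1.14) and Cdc25c (1.22), and just outside it lay E2f1 (0.96), E2f8 (0.93), Cdk6 (0.90) and Ccna2 (0.83). At 1.5-fold, 20 of the 45 genes were higher in M2 and 1 was lower, where 16.5% and 14.8% of all genes were. At 4-fold none was higher or lower, where 3.2% and 2.57% of all genes were. The counting interval lay wholly past 2-fold for 7 genes that were higher in M2 (Cdk1, Ccnb1, Ccnb2, Cdkn3, Cdc20, Ccnd2 and Ccne1) and for none that was lower, against 4.88% and 3.53% of all genes. Among genes with at least 1 CPM (a read count scaled to library size) in both libraries (14594 genes, with all 45 among them) the 11 and 1 calls stood against 5.52% and 3.97%.

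The same counts were taken with added tests on the reads, which compare these libraries and not the conditions. With a 2-fold difference and an exact binomial test, 11 genes were higher and 1 was lower in M2 (8.02% and 6.41% of all genes). Where a coefficient of variation between replicates was assumed in place of the missing replicates, the counts were 11 and 1 at 0.1 (7.31% and 5.62% of all genes), 8 and 0 at 0.2 (5.01% and 3.59%) and 0 and 0 at 0.4 (0.91% and 0.676%). The 8 genes at 0.2 were Cdk1, Ccnb1, Ccnb2, Cdkn3, Fbxo5, Cdkn2a, Ccnd2 and Ccne1. How much such cultures vary cannot be read from 1 library per group.

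To place these genes among the rest of the pathway, 7 further lists were summarised. Of 28 genes of mitosis that MuvB and Foxm1 are known to drive, 25 were at least 2-fold higher in M2 and none was lower. Of all genes tested, 9.53% were higher and 7.82% lower at that threshold. The mitotic list had a median log2 difference of 1.27 and positive values for all 28, where 9562 of all 19233 genes tested had positive values. Its extremes were Ttk (86 and 294 reads, log2 1.69) and Hmmr (362 and 1168, log2 1.62) against Aurkb (157 and 244, log2 0.56) and Plk4 (320 and 611, log2 0.86). Of 28 replication genes that E2F is known to drive, only Gmnn, which encodes the replication inhibitor geminin, was at least 2-fold higher (180 and 409 reads, log2 1.11), although 26 of the 28 had positive values and the median was 0.47. Rrm2, a subunit of ribonucleotide reductase, followed with 377 and 752 reads (log2 0.93), and the lowest were Gins3 (53 and 36 reads, log2 -0.61) and Gins2 (648 and 677, log2 -0.0061). For comparison, the medians of the 13 genes of G2/M and the 15 genes of G1/S were 1.11 and 0.33.

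None of the machinery around the cycle passed 2-fold, where 9.53% of all genes tested were higher and 7.82% lower. Over 8 subunits and partners of MuvB and E2F the median was -0.04, with Mybl1 (0.58) and Lin9 (0.27) at the top and Lin52 (-0.61) and Myb (-0.25) at the bottom. Over 21 subunits of APC/C and SCF it was 0.06, from Cdc27 (0.48) and Anapc4 (0.33) to Anapc1 (-0.31) and Anapc7 (-0.25). All were smaller than the differences of Cdc20 (1.23) and Fbxo5 (1.38), which steer APC/C. The difference of Fzr1 (0.33), which steers it as well, was smaller than that of Cdc27. Over 26 cyclins and CDKs that serve transcription or other processes it was -0.06, from Ccng1, a p53 target (1600 and 3110 reads, log2 0.89), and Ccnyl1 (0.44) to Cdk19 (6833 and 4577 reads, log2 -0.65) and Ccni (-0.33). Over 11 other inhibitors and brakes it was -0.29, with Gadd45a (0.40) and Sfn (0.40) at the top and Btg2 (19794 and 10963 reads, log2 -0.92) and Tob1 (-0.55) at the bottom. The last list shares Rbl2 with the 45 genes.

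Known inducers of D-type cyclins had mostly lower values in M2. Of 9 such genes with enough reads, out of 10 listed, 3 were at least 2-fold lower in M2 (Mycn, Fos and Stat5a) and none was higher. At that threshold 7.82% of all genes tested were lower and 9.53% higher. The median of the 9 genes was -0.52. Mycn had 253 reads in ctrl and 25 in M2 (log2 -3.36), and Fos, an early response gene, had 42339 and 11153 (log2 -1.99). Myc had 492 and 602 reads (log2 0.22) and Ctnnb1, the β-catenin gene, 33415 and 37624 (log2 0.10). The 3 that were lower encode transcription factors, as do most genes of this list by the way it was made.

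**Figure D5:**
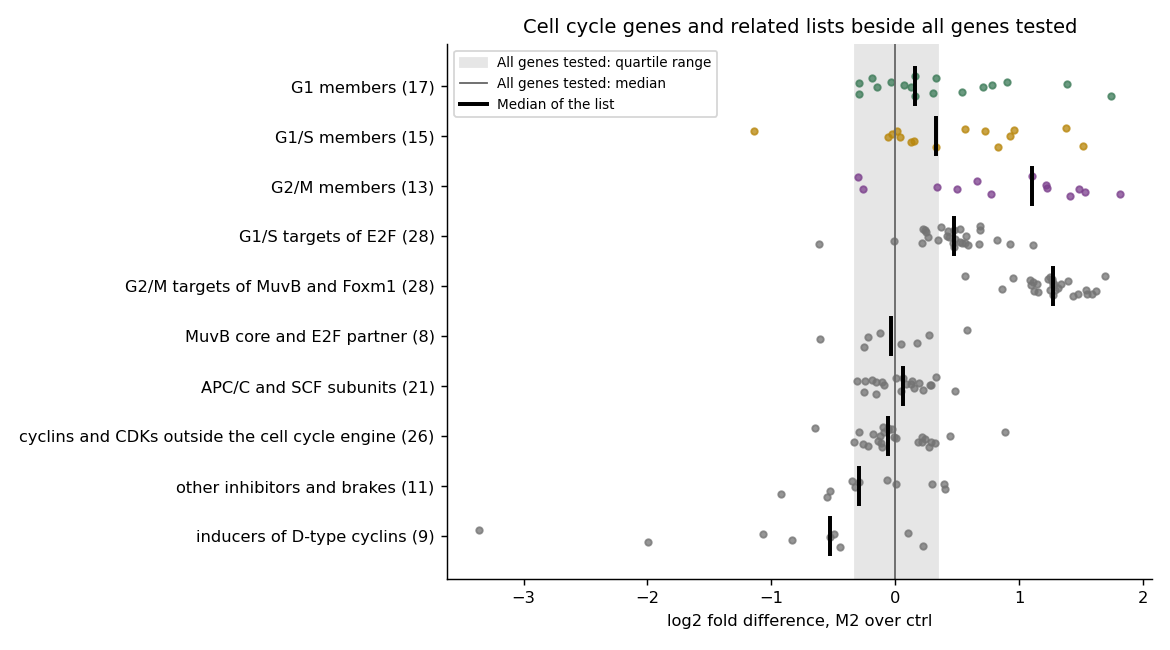
Log2 fold difference (M2 over ctrl) of each gene of the 3 phases and of 7 related lists, 1 point per gene, with a black bar for the median of each list and a grey band for the quartiles of all genes tested. The medians of the G2/M genes (1.11), of the mitotic list (1.27) and of the replication list (0.47) lie right of the band, that of the inducers of D-type cyclins (-0.52) lies left of it, and those of the APC/C and SCF subunits (0.06) and of the MuvB core (-0.04) lie near 0.

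Some counts could hold reads of other genes, since the use of strand in counting is not given in the sources used here. Exons of 18 of the 45 genes share bases with another gene, 16 of them on the opposite strand. The largest shares were those of Ccnd1 with Oraov1 (1100 bases, 23.4% of its length), Cdk4 with Tspan31 (604 bases, 18.6%), Ccne2 with Ints8 (609 bases, 17.4%) and Pkmyt1 with Paqr4 (313 bases, 15.4%). Of the 12 genes past 2-fold, Ccnd2 shares 3.95% of its length with Gm43126, which had 33 and 139 reads, and Cdc20 shares 2.84% with Elovl1. Ccnb1 and Cks2 have near-identical copies elsewhere in the genome. Those in the table had few reads (Gm12856 had 1 and 1, Gm4870 0 and 0, Gm15452 1 and 3). Other copies (Ccnb1-ps, Gm7483 and Gm8416 of Ccnb1, and Gm19945 of Cks2) were not counted under these names. Whether reads shared with copies were added to or lost from these counts was not tested.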

How the data were processed

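RNA of 2 cultures, 1 per group, was sequenced after library construction with a SMARTER mRNA kit per the labels. The authors deposited raw read counts per gene with gene coordinates and lengths, and did not normalise them. The series is titled as a microarray study, but these are sequencing reads. The submitters' processing notes name the genome build GRCm38, and the aligner, the counting tool and its strand setting are not given in the sources used here. The labels name a column kit for RNA extraction, and the study's methods name RNAiso Plus.

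Library sizes were scaled with edgeR 4.0.16 (R 4.3.3) by its TMM method, a trimmed mean of log ratios, with factors of 1.02 (ctrl) and 0.980 (M2). The fit covered the whole table, less genes under 10 summed reads: 1 read was added to each count and log2 fold differences were taken after division by the scaled library size. A gene was called at 2-fold, and its interval is the 95% Clopper-Pearson interval of its share of reads in M2. Reads carry no stated molecular identifiers, so that intervals and floors describe counting error alone, and nothing says how many animals or wells stand behind a library. A count of 0 allows up to 3 reads, 0.109 CPM in ctrl and 0.104 in M2. RPKM used the deposited gene lengths. Ratios of gene pairs have conditional odds ratio intervals (scipy 1.17.1 in Python 3.11.15). The scripts were tested on simulated data.

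All 45 genes are named, and of each related list the 2 highest and the 2 lowest genes by log2 fold difference with at least 50 reads summed. Of the marker lists, the genes with the most reads were to be named, and of these only Krt14, Krt5, Cd14, Cd68, Csf1r and Aif1 are. Other genes named (the macrophage genes at 0 reads, Cd163, Itgam, Stat5a, and the neighbours and copies) were chosen after their values were seen. The 45 genes and all lists were chosen with earlier results of these data known. Motifs were searched in RefSeq promoters of GRCm38.p6, and for 38 of the 42 windows the last 40 bases were found in GENCODE M21 transcripts of the same gene. Alternatives were other scalings (total reads, DESeq2 1.42.0 size factors, upper quartile), pseudocounts of 0.5 and 5, other filters and thresholds, and removal of a trend with gene length.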

Additional observations from a re-analysis of the deposited data

How the results depend on the processing

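No paired analysis was possible because ctrl and M2 have 1 library each, and for the same reason no replicate could be left out. All 45 genes kept their side of 2-fold over the 8 alternatives of scaling, pseudocount, filter and length trend, and 42 kept their sign. The 3 that did not were Cdk2 (-0.02 to 0.05), Rbl1 (-0.08 to 0.01) and Skp2 (-0.05 to 0.07). The 11 higher and 1 lower calls depended on the threshold. They became 20 higher at 1.5-fold, 0 higher and 0 lower at 4-fold, 7 higher and 0 lower with the interval wholly past 2-fold, 0 lower at an assumed coefficient of variation of 0.2, and 0 higher and 0 lower at 0.4. In the 200 bases before the start, CHR letters were held by 1 gene of G1, 5 of G1/S and 5 of G2/M. CCAAT boxes were held by 3, 9 and 8 genes, and both by 0, 5 and 5. Of all genes, 15.4% held CHR letters in that stretch, 32.7% a CCAAT box and 4.70% both. Scaling by total reads moved the median of all genes to -0.06, and with it Ccnd1 to -0.21 and Cdkn1b to -0.35. Cdkn3, Fbxo5, Cdkn2a and Cdc25c, the 4 with the fewest reads in ctrl among the 12 called genes, have the widest intervals.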
